A study of Homo sapiens with 6 samples.

Results

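The genes of the endoplasmic reticulum (ER) that sense unfolded proteins, fold them and remove them were examined in stem cell-derived cardiomyocytes exposed to alcohol. A list of 35 genes was taken by symbol, from the stress sensors and their transcription factors to chaperones, disulfide isomerases, degradation factors and translocon genes. HSP70, DNAJ and ATF4-branch genes were left out of it. All 35 were found among the 21134 genes of the deposited table, and all 35 passed the filter on low counts, the lowest count of a member in any library being 10. RNA was sequenced from 6 libraries of cardiomyocytes that the labels call hiPSC-CMs and assign to H9, which is an established line of human embryonic stem cells. There were 2 control libraries of untreated cells, 2 alcohol libraries of cells given 100 mM alcohol for 24 h, and 2 co-treated libraries of cells given 100 mM alcohol with 1 μM losartan, a blocker of the angiotensin II type 1 receptor, for 24 h. All groups came from this 1 line, and no group received losartan without alcohol. Nothing in the labels says that the 2 libraries of a group came from separate cultures, so p-values measure only the spread between these libraries, which may be technical.

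The ER is where secreted and membrane proteins are made and folded. When unfolded proteins build up there, the sensors IRE1 (encoded by ERN1), ATF6 and PERK are activated. IRE1 splices the mRNA of XBP1 into a form that encodes an active transcription factor, and ATF6 is moved to the Golgi and cut to release one. Both factors then raise the transcription of chaperones, disulfide isomerases and genes of ER-associated degradation, the route by which misfolded proteins are pulled back to the cytosol for the proteasome. In cardiomyocytes the same compartment is continuous with the sarcoplasmic reticulum, which stores the calcium for contraction. Counts per gene do not tell the spliced from the unspliced form of XBP1, and they do not show whether ATF6 was cut.

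The DNA elements through which these factors act were read from promoter windows, because they show which members hold sequences known from this response. RefSeq windows (GRCh38.p14) were given for 31 of the 35 members, and the 250 bases before each start were searched on both strands. PDIA3, DERL1, DERL3 and SEC24D had no window. The ER stress response element, ERSE, is CCAAT and CCACG held 9 bases apart, and was found in 7 members (22.6% of those with a window) and in 25 of 27305 genes with a window (0.0916%). The related ERSE-II is ATTGG and CCACG held 1 base apart, and was found in 3 members (9.68%) and in 18 of all genes (0.0659%). The XBP1-type element UPRE, searched as TGACGTGG, was found in 2 members (6.45%) and in 213 of all genes (0.78%). In all, 11 members (35.5%) held at least 1 of the elements, against 254 of the 27305 genes with a window (0.93%). The elements are known from genes of this response and the list was chosen as such genes, so the higher share is no separate result. A match is a description of letters and does not show that a factor binds there. Other transcripts of a gene can start further out: the stretches of HSP90B1, CANX, VCP and SERP1 shown next touch an exon of the same gene in GENCODE 29, and those of CANX and PDIA6 lie inside the gene's RefSeq span.

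The elements of the members are shown on the strand of the gene with 5 bases on each side, the element in capitals. An element on the opposite strand reads in reverse, with CGTGG first. XBP1 carries an ERSE 52 to 34 bases before its own start, and HSP90B1, the ER paralog of HSP90 also known as GRP94, carries 2 of them, 194 to 176 and 89 to 71 bases before its start. HYOU1, a large HSP70-like nucleotide exchange factor, carries 2 ERSE-II, of which the one 185 to 175 bases before the start overlaps its UPRE at 188 to 181.
XBP1, ERSE, chr22:28800598-28800626: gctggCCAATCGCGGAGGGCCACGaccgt
HSP90B1, ERSE, chr12:103930211-103930239: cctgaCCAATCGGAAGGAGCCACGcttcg
HSP90B1, ERSE, chr12:103930316-103930344: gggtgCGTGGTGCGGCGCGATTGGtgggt
CALR, ERSE, chr19:12938379-12938407: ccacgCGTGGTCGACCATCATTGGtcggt
CANX, ERSE, chr5:179698773-179698801: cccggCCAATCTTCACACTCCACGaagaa
CRELD2, ERSE, chr22:49918549-49918577: cctctCGTGGCGAACTCGGATTGGgccat
PDIA6, ERSE, chr2:10812848-10812876: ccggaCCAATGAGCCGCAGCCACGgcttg
SERP1, ERSE, chr3:150546705-150546733: tcatgCGTGGAGACAGCGAATTGGtgttt
HYOU1, ERSE-II, chr11:119057375-119057395: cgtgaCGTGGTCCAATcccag
HYOU1, ERSE-II, chr11:119057269-119057289: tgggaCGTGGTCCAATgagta
SDF2L1, ERSE-II, chr22:21642109-21642129: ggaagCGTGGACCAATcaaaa
HERPUD1, ERSE-II, chr16:56932020-56932040: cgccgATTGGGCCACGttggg
HYOU1, UPRE, chr11:119057381-119057398: ccccgTGACGTGGtccaa
VCP, UPRE, chr9:35072802-35072819: ccaatTGACGTGGcgtta

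Most of the transcripts were well detected and differed by less than 2-fold between libraries. The levels are given as FPKM, the expected count scaled by transcript length and by the fragments of the library. The median member stood at percentile 80.4 of the mean FPKM of the 21134 genes, including those that failed the filter on low counts. Over the 6 libraries the highest FPKM of a member was under 2 times its lowest in 33 of the 35 members and under 1.5 times in 24, and the median coefficient of variation was 10.8%. The exceptions to the 2-fold bound were ERN1 (2.78 times) and CREB3L1 (2.38 times), which are also low in level. These spreads were not set beside those of all genes, and a shift between the numbered libraries is described below.

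**Figure D1:**
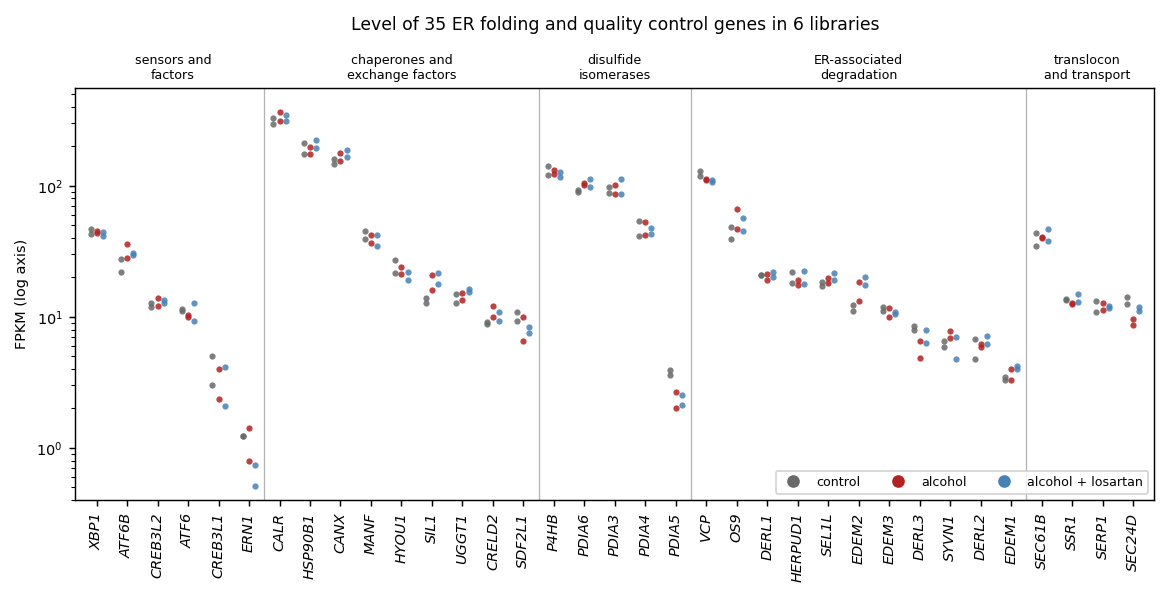
FPKM (log axis) of the 35 members in the 6 libraries, 1 point per library, grouped by role and ordered by mean within each role. CALR sits highest, between 297 and 365 FPKM, and ERN1 lowest, between 0.51 and 1.42, and the colours of the 3 groups lie on each other for most genes.

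Calreticulin (CALR), a calcium-binding lectin chaperone, had the highest level. Its FPKM was 297 and 326 in the control libraries, 313 and 365 in the alcohol libraries and 314 and 347 in the co-treated libraries. The 3 ranges overlapped, and every library lay above every library of the next gene, HSP90B1, at 175 to 222. Calnexin (CANX), the membrane-bound lectin chaperone, followed at 146 to 187, and the disulfide isomerase P4HB at 116 to 140 overlapped with the ATPase VCP at 107 to 128. In all, 5 members had a mean above 100 FPKM and 8 had one under 10.

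No member passed the test in any comparison. Of the 35 members, 0 were called by edgeR at an adjusted p under 0.05 for alcohol against control, where 10 of the 14926 genes tested were called (0.0670%). There were also 0 for co-treated against alcohol (2 of all genes, 0.0134%), 0 for co-treated against control (54, 0.362%) and 0 for all 4 alcohol-exposed libraries against control (83, 0.556%). At an unadjusted p under 0.05 the members counted 5 (14.3%), 0, 4 (11.4%) and 6 (17.1%) in that order, and all genes counted 11.0%, 5.55%, 12.6% and 13.5%. DESeq2 gave 0 calls as well, and so did each of the other settings tried. The comparisons share libraries, so a gene that stands out in 2 of them is not evidence from 2 experiments.

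The members were split between higher and lower values. In alcohol against control 14 members were higher and 21 lower, with a median log2 fold change of -0.04, beside -0.003 over all genes. In co-treated against alcohol 18 were higher and 17 lower, with a median of 0.02, and in co-treated against control 17 were higher and 18 lower, with a median of -0.03. The sign of these medians rested on single libraries. Without control library 2 the median was 0.05 for alcohol against control, 0.05 for co-treated against control and 0.08 in place of -0.05 for all alcohol-exposed libraries against control. It was also 0.04 for co-treated against control without co-treated library 1, and -0.02 for co-treated against alcohol without co-treated library 2. The FPKM of the exposed and control libraries did not overlap for 9 of the 35 members (25.7%), 5 higher and 4 lower, and for 23.2% of all genes tested.

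The intervals bound the changes that could have been missed. For alcohol against control the 95% interval of the fold change lay within 2-fold in either direction for 31 of 35 members, and for all 35 its upper end stayed under 2-fold, the highest being 1.75-fold for SIL1. A 2-fold lower level stayed within the interval of ERN1, CREB3L1, PDIA5 and DERL3. For co-treated against alcohol 34 members lay within 2-fold, with ERN1 outside. For co-treated against control 30 did, with ERN1, CREB3L1, SDF2L1 and PDIA5 outside on the lower side and EDEM2 on the upper side (2.07-fold). These intervals hold for each gene alone and were not widened for the number of genes.

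**Figure D2:**
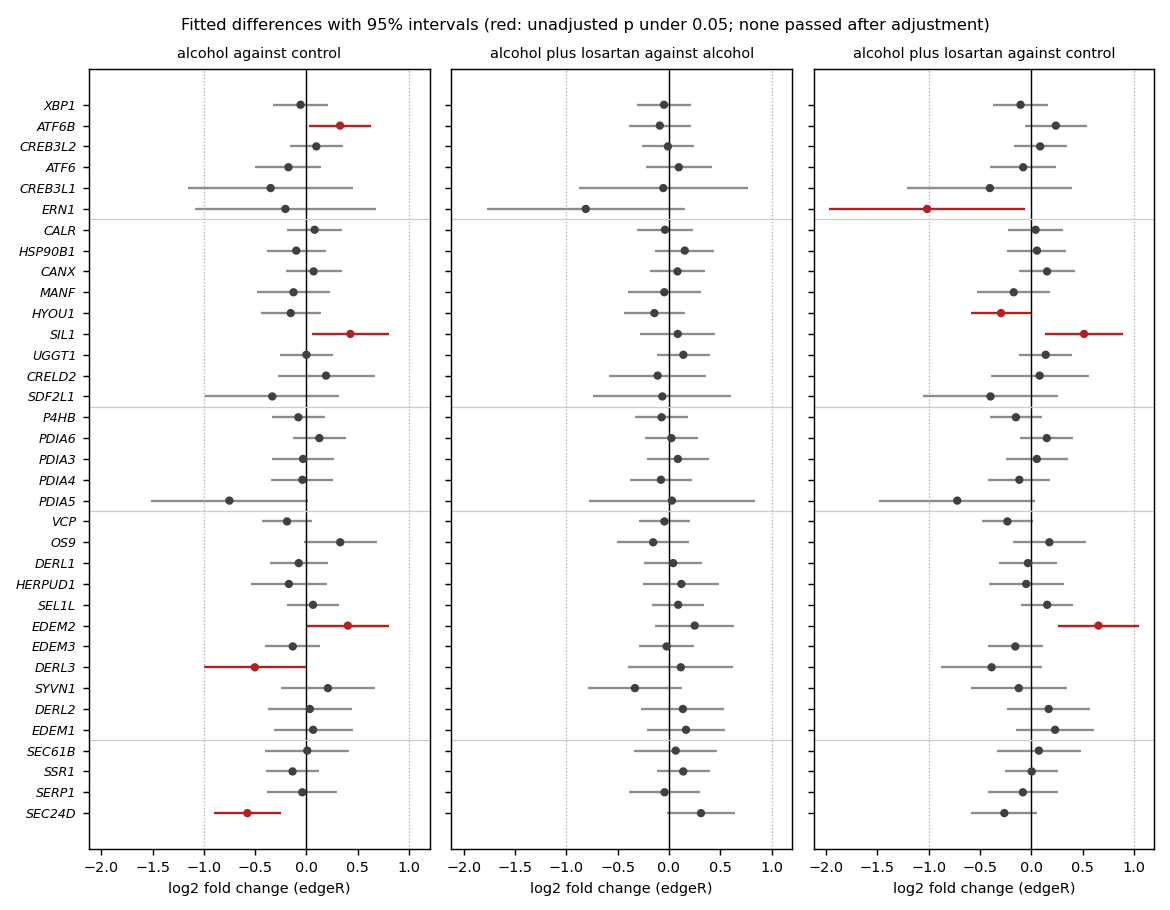
Fitted log2 fold change (point) and its 95% interval (line) for the 35 members, in 3 comparisons, with dotted lines at a 2-fold change and red for an unadjusted p under 0.05. The points scatter on both sides of 0, with 5 red members in the left panel, 0 in the middle and 4 on the right, and the widest intervals belong to ERN1, CREB3L1, SDF2L1 and PDIA5.

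Among the sensors and transcription factors, XBP1 (chr22:28794560-28800569) was the steadiest. Its FPKM was 46.6 and 43.0 in the control libraries, 43.7 and 44.8 in the alcohol libraries and 41.6 and 44.5 in the co-treated libraries. The groups overlapped, and the fold change was 0.961 for alcohol against control (95% interval 0.799 to 1.16) and 0.968 for co-treated against alcohol (0.804 to 1.16). ATF6 (chr1:161766320-161964070) read 11.4 and 11.1 FPKM in control, 10.0 and 10.4 in alcohol and 9.30 and 12.7 in co-treated libraries. The alcohol libraries lay under the control libraries by less than the gap between the 2 co-treated ones, and the log2 fold change for alcohol was -0.18 (SE 0.15).

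ATF6B (chr6:32115264-32128246), the close relative of ATF6, read 22.1 and 27.5 FPKM in control, 28.2 and 35.8 in alcohol and 30.7 and 29.7 in co-treated libraries. All 4 exposed libraries lay above both controls, the lower alcohol library only just. The log2 fold change was 0.33 for alcohol against control (SE 0.14, edgeR adjusted p = 0.411) and 0.28 for all exposed libraries (SE 0.12, adjusted p = 0.335), which did not pass the test.

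ERN1 (chr17:64039142-64130144) was the lowest member, at 1.23 and 1.23 FPKM in control, 0.79 and 1.42 in alcohol and 0.51 and 0.74 in co-treated libraries. The co-treated libraries were the lowest 2 of the 6, while the alcohol libraries fell on both sides of the controls. These levels rest on 10 to 28 counts per library. The log2 fold change of co-treated against control was -1.02 (SE 0.44, edgeR adjusted p = 0.358), with a 95% interval from -1.97 to -0.06. Of the other factors, CREB3L1 ranged from 2.10 to 4.99 FPKM with no order by group, and CREB3L2, from 11.9 to 14.0. Both encode membrane-bound factors of the same family as ATF6 that are cut in the Golgi. Of these 6 genes 2 were higher and 4 lower with alcohol.

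**Figure D3:**
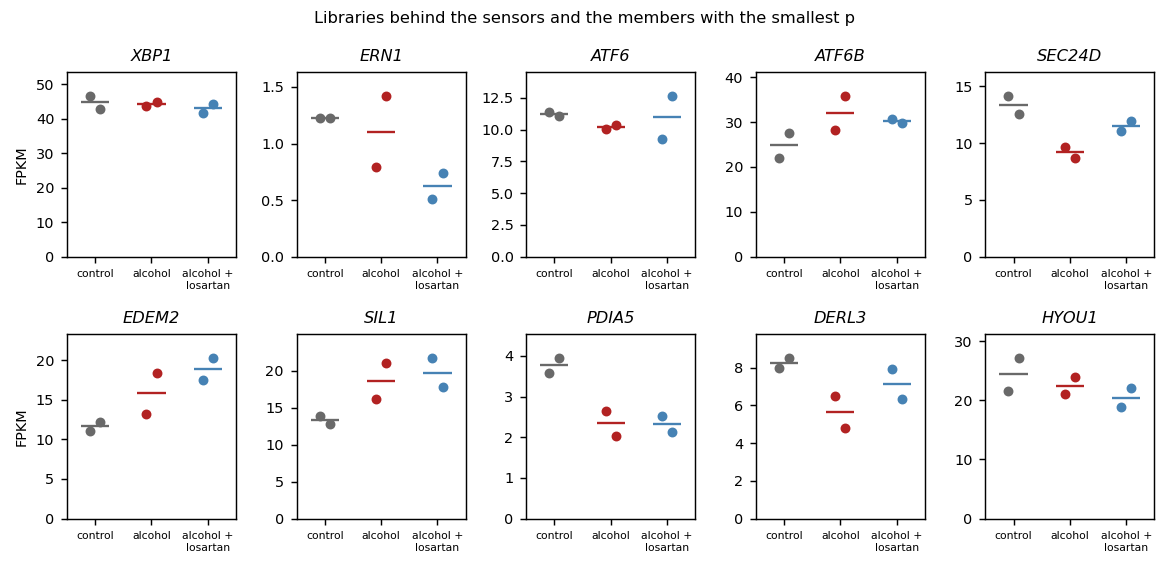
FPKM of 10 members in each library (points) with the mean of the 2 libraries of a group (line), each panel starting at 0. XBP1 is level, SEC24D is lowest in the 2 alcohol libraries, EDEM2, SIL1 and ATF6B are higher in all exposed libraries than in the controls, and PDIA5 and DERL3 are lower.

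The chaperones and nucleotide exchange factors held the largest share of the message. The summed FPKM of these 9 genes was 729 and 814 in control, 749 and 860 in alcohol and 784 and 871 in co-treated libraries, so that the gap between 2 libraries of a group was wider than that between groups. SIL1 (chr5:138946724-139198368), which exchanges the nucleotide of the ER HSP70 protein BiP, read 13.9 and 12.8 FPKM in control, 16.1 and 21.0 in alcohol and 21.7 and 17.8 in co-treated libraries. All 4 exposed libraries lay above both controls. Its fold change was 1.35 for alcohol against control (95% interval 1.04 to 1.75, edgeR adjusted p = 0.390) and 1.39 for all exposed libraries (1.10 to 1.74, adjusted p = 0.183), and it was not called.

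HYOU1 (chr11:119044188-119057205), which serves BiP in the same way, did not go with SIL1. It read 21.6 and 27.2 FPKM in control, 21.1 and 23.9 in alcohol and 19.0 and 22.0 in co-treated libraries. The ranges of control and co-treated libraries overlapped, and the log2 fold change of co-treated against control was -0.30 (SE 0.14, edgeR adjusted p = 0.391). The lectin chaperones and HSP90B1 were level: log2 fold changes for alcohol were 0.08 for CALR (SE 0.12), 0.07 for CANX and -0.10 for HSP90B1. UGGT1, the enzyme that tags misfolded glycoproteins for a new round with calnexin, gave -0.0009. MANF and CRELD2, secreted ER stress proteins, gave -0.13 and 0.19, and SDF2L1, a partner of ER DNAJ proteins with 28 to 47 counts per library, gave -0.33. None of these passed.

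Of the 5 disulfide isomerases, which form and rearrange the disulfide bonds of folding proteins, PDIA5 differed most. PDIA5 (chr3:123067025-123162104) read 3.59 and 3.95 FPKM in control, 2.65 and 2.03 in alcohol and 2.52 and 2.13 in co-treated libraries. The 4 exposed libraries lay below both controls, with 17 to 37 counts per library. The fold change of all exposed libraries against control was 0.600 (95% interval 0.384 to 0.939, edgeR adjusted p = 0.298). The abundant members of the family gave log2 fold changes for alcohol of -0.03 for PDIA3, -0.04 for PDIA4, 0.13 for PDIA6 and -0.08 for P4HB. Their summed level with PDIA5 ran from 344 to 389 FPKM in the controls and from 355 to 392 in the exposed libraries.

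ER-associated degradation was covered by 11 members. EDEM2 (chr20:35115364-35147336), which starts the mannose trimming that marks misfolded glycoproteins, read 11.1 and 12.3 FPKM in control, 13.3 and 18.4 in alcohol and 17.5 and 20.3 in co-treated libraries. All 4 exposed libraries lay above both controls. The fold change was 1.57 for co-treated against control (95% interval 1.2 to 2.07, edgeR adjusted p = 0.140) and 1.44 for all exposed libraries (1.13 to 1.84, adjusted p = 0.159). Its paralogs did not share the difference in size: the log2 fold change of co-treated against control was 0.65 for EDEM2 (SE 0.18), 0.23 for EDEM1 (SE 0.18) and -0.16 for EDEM3 (SE 0.12). The difference between the paralogs was not tested. EDEM2 overlaps a read-through gene (MMP24-AS1-EDEM2) that has no row of its own in the deposited table, so reads of both genes cannot be told apart.

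DERL3 (chr22:23834503-23839006), a derlin of the channel through which proteins leave the ER, read 7.99 and 8.51 FPKM in control, 6.50 and 4.81 in alcohol and 7.95 and 6.35 in co-treated libraries. The exposed libraries lay below both controls, though the higher co-treated library and the lower control almost met. The log2 fold change for alcohol was -0.50 (SE 0.23, edgeR adjusted p = 0.447). DERL3 overlaps SMARCB1 in the annotation. DERL1 and DERL2, its paralogs, gave -0.08 and 0.03. The ubiquitin ligase SYVN1 and its partner SEL1L gave 0.21 and 0.06, the lectin OS9, which brings glycoproteins to that ligase, gave 0.33 (SE 0.16), and HERPUD1, a stress-induced organiser of the same complex, gave -0.17. VCP, the ATPase that pulls proteins out of the membrane, gave -0.19 (SE 0.12), its 4 exposed libraries at 107 to 113 FPKM all under the controls at 119 and 128.

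SEC24D (chr4:118722823-118836126), a cargo-binding subunit of the COPII coat that carries folded proteins out of the ER, had the smallest p of any member. It read 14.1 and 12.6 FPKM in control, 9.68 and 8.69 in alcohol and 11.0 and 11.9 in co-treated libraries. The groups did not overlap: the alcohol libraries were lowest, the control libraries highest and the co-treated ones between them. The fold change for alcohol was 0.671 (95% interval 0.535 to 0.841, edgeR adjusted p = 0.170). For co-treated against alcohol it was 1.24 (0.989 to 1.56, adjusted p = 0.899), and for co-treated against control 0.833 (0.667 to 1.04, adjusted p = 0.50). In 14 other settings the log2 fold change for alcohol ran from -0.69 to -0.46, a sign largely set by groups that do not overlap. In the settings that left out no library, the adjusted p ran from 0.114 (edgeR, replicate block) to 0.319 (limma on log2(FPKM + 1)). The translocon members SEC61B and SSR1 and the translocon-associated SERP1 gave log2 fold changes for alcohol of 0.01, -0.14 and -0.04.

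**Figure D4:**
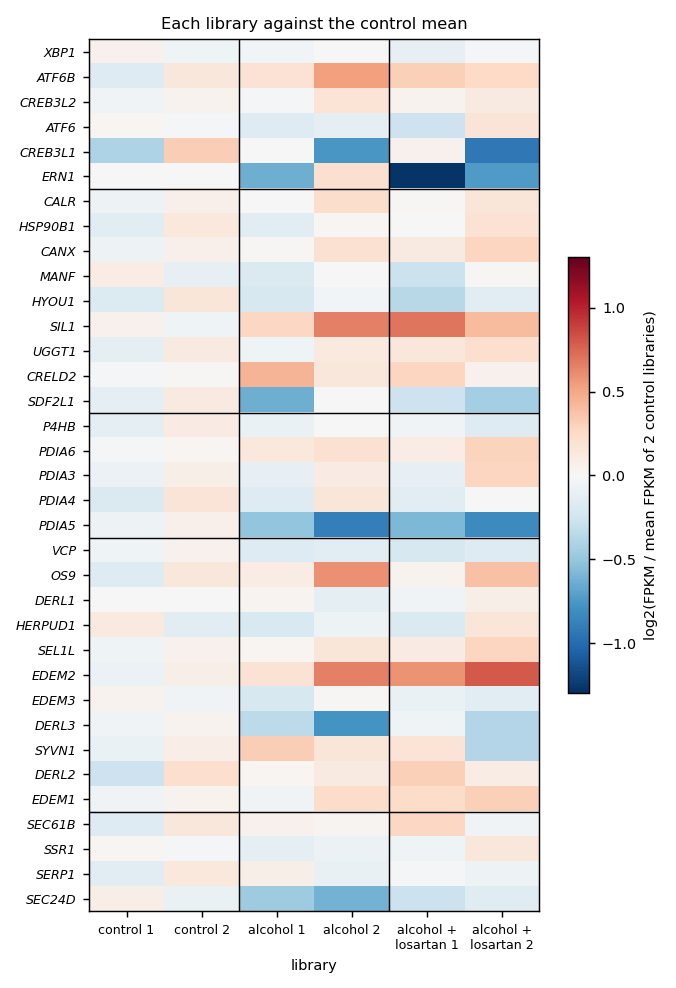
Colour gives log2 of FPKM over the mean of the 2 control libraries, for 35 members (rows, grouped by role) in 6 libraries (columns). Most cells are pale, SIL1 and EDEM2 are red and PDIA5 blue in all 4 exposed libraries, SEC24D is bluest in the alcohol libraries, and CREB3L1 differs more between libraries of a group than between groups.

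The members were then set out by whether an element had been found in the promoter window. The 11 members with an element had log2 fold changes for alcohol between -0.33 (SDF2L1) and 0.19 (CRELD2), with 4 higher and 7 lower and a median of -0.06. The 20 members whose window was searched without a match ran from -0.75 (PDIA5) to 0.43 (SIL1), with 10 higher and 10 lower and a median of 0.003. The 4 members with no window, PDIA3, DERL1, DERL3 and SEC24D, were not searched, and all 4 were lower, from -0.58 to -0.03. An unadjusted p under 0.05 for alcohol against control was found in 0 of the 11, in 3 of the 20 (ATF6B, SIL1 and EDEM2, 15.0%) and in 2 of the 4 not searched, beside 11.0% of all genes tested. For all 11 the 95% interval lay within 2-fold. The FPKM of CRELD2 and PDIA6, which hold an ERSE, was higher in all 4 exposed libraries than in both controls, for CRELD2 only just. That of VCP, which holds a UPRE, was lower in all 4. In co-treated against control HYOU1 was the only one of the 11 with an unadjusted p under 0.05. No test was made between these sets, which differ in level and so in precision.

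**Figure D5:**
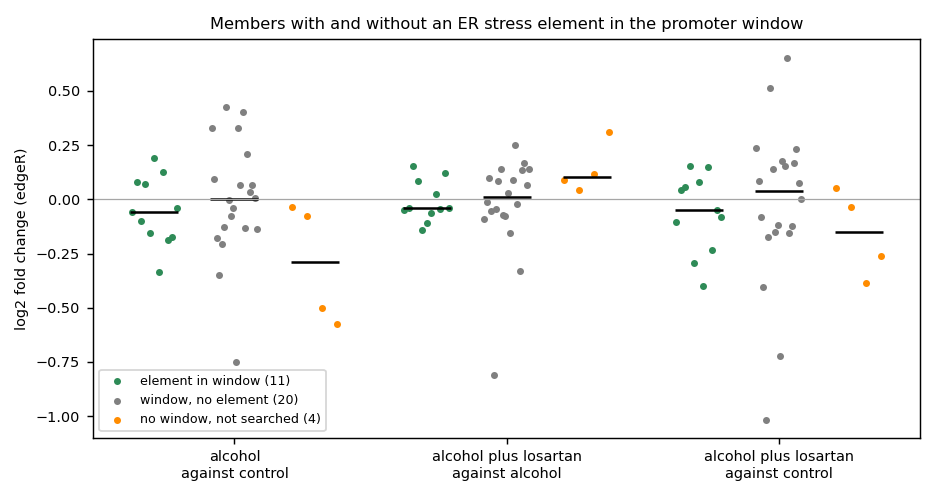
Log2 fold change of each member (point) and the median of each set (line) for the 11 members with an ERSE, ERSE-II or UPRE in the promoter window, the 20 with a window and no match, and the 4 with no window, in 3 comparisons. The first 2 sets lie around 0, with medians of -0.06 and 0.003 for alcohol against control, and the widest values belong to members without a match, such as ERN1 at -1.02 for co-treated against control.

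Within each group the library numbered 2 tended to read higher for the members. The members' summed FPKM was 1506 and 1670 in the control libraries, 1539 and 1722 in the alcohol libraries and 1587 and 1726 in the co-treated libraries. In all 3 groups 14 of 35 members (40.0%) were higher in library 2 and 0 were lower, against 17.6% and 11.2% of all genes tested. The 14 were CREB3L2, HYOU1, HSP90B1, CALR, CANX, UGGT1, PDIA3, PDIA4, PDIA6, SEL1L, EDEM1, EDEM2, OS9 and VCP. The median gap of the members was 0.13, 0.13 and 0.10 on the log2 scale in control, alcohol and co-treated libraries. Over all genes tested it was 0.03, 0.08 and -0.03. The labels give no batch for these numbers.

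Genes of the pathway outside the 35 were read from the same fit. Of 43 listed, 42 were tested and 0 were called in any comparison. At an unadjusted p under 0.05 there were 4 (1 higher, 3 lower) for alcohol against control, 3 (2 higher, 1 lower) for co-treated against alcohol, 6 (4 higher, 2 lower) for co-treated against control and 5 (3 higher, 2 lower) for all exposed libraries. These are 9.52%, 7.14%, 14.3% and 11.9% of the 42, beside 11.0%, 5.55%, 12.6% and 13.5% of all genes tested. HSPA5, which encodes BiP and is the standard readout of the response, read 116 and 125 FPKM in control, 121 and 142 in alcohol and 115 and 150 in co-treated libraries. Its groups overlapped, and its fold change for alcohol was 1.06 (95% interval 0.858 to 1.31). HSPA5 holds an ERSE as well, 66 to 48 bases before its start.

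In the PERK branch, DDIT3, the stress factor CHOP, read 8.20 and 8.26 FPKM in control, 12.6 and 12.1 in alcohol and 15.9 and 13.1 in co-treated libraries. The exposed libraries lay above both controls, and the fold change of all exposed libraries was 1.49 (95% interval 1.07 to 2.06, edgeR adjusted p = 0.270). The mRNA of ATF4, the factor upstream of DDIT3, did not go with it: its log2 fold change was -0.05 for alcohol against control and -0.27 for co-treated against control (adjusted p = 0.350). Counts of this mRNA do not show how much ATF4 protein was made. PPP1R15A, the phosphatase subunit that ends the translational block, gave 0.41 for alcohol against control (adjusted p = 0.267) and -0.53 for co-treated against alcohol (adjusted p = 0.587). ASNS, an ATF4 target, gave 0.53 for co-treated against control (adjusted p = 0.239). Other targets of this factor, named after their values were seen, did not go with it: TRIB3 gave -0.35 (SE 0.39) and CHAC1 -0.40 (SE 0.70) in the same comparison. Of the 7 genes of the branch 3 were higher and 4 lower there.

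ERO1A, the oxidase that supplies disulfide bonds to the isomerases and is also a hypoxia-responsive gene, differed most among these genes. It read 16.9 and 11.5 FPKM in control, 10.4 and 6.68 in alcohol and 18.6 and 15.4 in co-treated libraries. The alcohol libraries were the lowest 2 and the co-treated ones overlapped with control. The log2 fold change was -0.77 for alcohol against control (SE 0.22, edgeR adjusted p = 0.201) and 0.98 for co-treated against alcohol (SE 0.22, adjusted p = 0.461). In 14 other settings the log2 fold changes ran from -1.16 to -0.44 and from 0.67 to 1.37. Their sign was largely set in advance, since the alcohol libraries overlapped with neither of the other groups. Whether these 2 differences passed depended on the setting, as the last section describes for the replicate block. SEC61G, a translocon subunit, read 148 and 134 FPKM in control, 97.5 and 94.2 in alcohol and 110 and 128 in co-treated libraries, with a fold change of 0.663 for alcohol (95% interval 0.533 to 0.825, adjusted p = 0.150). It showed the same order of groups as SEC24D, and its libraries did not overlap between control and exposed. UBE2J1, MBTPS1, SEC63 and ERLEC1 also had an unadjusted p under 0.05 in at least 1 comparison, with log2 fold changes between -0.36 and 0.31 in the 4 comparisons.

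Each library held 4898287 to 5051448 expected counts, so that a count of 0 allows up to 3 counts, or 0.594 to 0.612 CPM (counts per library scaled to a common size). This floor covers counting error only. The cardiomyocyte markers summed to 26364 and 25893 FPKM in control, 25613 and 19407 in alcohol and 22106 and 24306 in co-treated libraries. None of the 11 was near 0, as the labelled cell type requires. Their sum was lower in all 4 exposed libraries than in both controls, an order that came from MYL7, its largest part. MYL7 read 14512 and 16180 FPKM in control, 12612 and 9321 in alcohol and 10240 and 11847 in co-treated libraries. TNNT2 was lower in all 4 exposed libraries as well, whereas PLN and RYR2 were higher in all 4. Smooth muscle markers summed to 1926 and 1689 FPKM in control, 1451 and 722 in alcohol and 991 and 1036 in co-treated libraries, fibroblast markers to 604 to 662 and pluripotency markers to 10.4 to 19.3. Endoderm and liver-like markers summed to 48.3 and 46.7 FPKM in control, 60.3 and 64.0 in alcohol and 63.6 and 58.6 in co-treated libraries. Endothelial markers summed to 4.92 and 4.65 in control, 6.16 and 7.43 in alcohol and 7.97 and 8.96 in co-treated libraries. The sums of these 2 lists were thus higher in all 4 exposed libraries, as SIL1, EDEM2, ATF6B, CRELD2 and PDIA6 were. The smooth muscle sum and, through MYL7, the cardiomyocyte sum were lower in all 4, as PDIA5, DERL3, VCP and SEC24D were. Not every gene followed its sum. ALB, APOB, FGA and FGB of the endoderm list and CNN1 of the smooth muscle list overlapped with control. APOA2 of the endoderm list was equal in alcohol library 1 and control library 2, at 1.34 FPKM. Of the endothelial markers only KDR was higher in all 4, at 4.0 and 3.7 FPKM in control and 5.18 to 7.7 in exposed libraries. No gene of these lists was at the floor in all libraries. Fewer cells of a type and less RNA per cell cannot be told apart in these bulk samples, and the part of these marker differences in the results above was not tested. In the annotation 7 members overlap another coding gene (CANX, PDIA3, PDIA6, SYVN1, EDEM2, DERL2 and DERL3), whose reads the counting could split.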

How the data were processed

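RNA-seq of 6 libraries, 2 per group, was used. For each gene the authors deposited an expected count (estimated, 33.9% not whole) and the FPKM, which scales it by length and library. The labels list HISAT2 2.0.4, Bowtie2 2.2.5, RSEM 1.2.12 and hg38, with no roles. No strand setting is given in the sources used here, so antisense partners (HYOU1-AS1, CREB3L2-AS1) cannot be told apart. Libraries were grouped by the treatment label.

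Expected counts were rounded and tested with edgeR 4.0.16 (quasi-likelihood F test, two-sided, TMM, filterByExpr, all 6 libraries in 1 fit, R 4.3.3), with Benjamini-Hochberg adjustment over 14926 genes. The exposed comparison takes the mean of both exposed groups. Standard errors and 95% intervals come from the F statistics. Depth was 4898287 to 5051448 counts. Alternatives were DESeq2 1.42.0, limma 3.58.1 on log2(FPKM + 1) and log2(FPKM + 0.1), other size factors, no filter, at least 10 counts in every library, a replicate block, only the groups compared, and each library left out.

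The members and lists were chosen with earlier results of these data known. Values per library are given for XBP1, ERN1, ATF6 and ATF6B, any member called, up to 12 members with an unadjusted p under 0.05, and the highest and lowest members. Genes outside the list are named at such a p (at most 10), with HSPA5, DDIT3 and ATF4 in any case. Of UFD1 and SELENOS the older symbols (UFD1L, VIMP) were used. VCP, OS9, the remaining members and the marker lists are given as ranges or fitted values. Protein sequences were not used here. Promoter windows, element positions and gene spans are from RefSeq GRCh38.p14.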

Additional observations from a re-analysis of the deposited data

How the results depend on the processing

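The 0 calls among the 35 members held in each of the 4 comparisons under every alternative run, 1925 fits of a member in 14 settings, with a smallest adjusted p of 0.064 (EDEM2, all exposed libraries against control, without alcohol library 1). In 7 of these fits DESeq2 gave no adjusted p. The 15 named differences with an unadjusted p under 0.05 kept their sign in 204 of 204 alternative fits. They were picked by p from these same libraries, and for most of them the FPKM of the 2 groups did not overlap. Their sign could therefore hardly change, and the count is no separate support. The number of members at an unadjusted p under 0.05 for alcohol against control was 5 and fell to 1 with DESeq2. With a library left out it ran from 1 to 7 for alcohol against control, 0 to 2 for co-treated against alcohol, 1 to 5 for co-treated against control and 3 to 7 for all exposed libraries. The members' median log2 fold change ran from -0.082 to 0.052 for alcohol against control and from -0.090 to 0.081 for all exposed libraries, the upper ends being those without control library 2. For co-treated against control it ran from -0.071 to 0.053, and was 0.012 and 0.013 with limma on log2(FPKM + 1) and log2(FPKM + 0.1), against -0.034. For co-treated against alcohol it ran from -0.025 to 0.048. The cause was not tested.

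Calls over all genes depended on the setting. For alcohol against control the count of 10 became 74 with DESeq2, 2 with no filter, 26 with at least 10 counts, 0 and 2 with limma on log2(FPKM + 1) and log2(FPKM + 0.1), 3 with only the groups compared, and 1 to 220 with a library left out. For co-treated against alcohol 2 became 5, 1, 0, 1 and 2 in that order, 4 with only the groups compared, and 1 to 24. For co-treated against control 54 became 116, 15, 78, 2 and 3, 158 with only the groups compared, and 2 to 184. For all exposed libraries 83 became 151, 27, 144, 0 and 5, and 6 to 407. The highest counts came without alcohol library 1. Leaving out a library leaves 1 in its group, assumed to vary like the others.

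The replicate numbers showed little pairing of the libraries over all genes. Over 14450 genes the deviations of same-numbered libraries correlated at 0.103 (control and alcohol), -0.009 (control and co-treated) and 0.044 (alcohol and co-treated). The members did tend to read higher in library 2 in all 3 groups, as given above. Whether the numbers mark a shared culture or batch was not tested. With the replicate block the counts of genes called were 48, 5, 136 and 256 in the order above, and 0 members were called. ERO1A passed with the block for alcohol against control (adjusted p = 0.0394) and for co-treated against alcohol (adjusted p = 0.0398). The depth and 2 libraries a group limit what could be seen for ERN1, CREB3L1, PDIA5 and SDF2L1.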
